A study of Homo sapiens with 6 samples.

Results

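The spindle assembly and microtubule-associated genes described here are TPX2, ASPM, NUSAP1, HMMR, CKAP2, CKAP2L, CKAP5, DLGAP5, TACC3 and SPAG5. They were picked by gene symbol, and all 10 were found among the 30618 genes with deposited counts. RNA-seq was performed on ARPE-19 cells, a long-used human line derived from the retinal pigment epithelium, kept in 50 mM glucose in both groups. Cells of the NC group received a non-targeting siRNA and cells of the siEIF1 group an siRNA against EIF1, a translation initiation factor that takes part in start codon selection, with 3 biological replicates in each group. The methods give 1 siRNA sequence against EIF1, and no library from cells in normal glucose or from an osmotic control was analysed here. The comparison asks how the level of each transcript changed when EIF1 was depleted in high glucose.

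The mitotic spindle is built from microtubules that grow from the poles, around the chromosomes and from the sides of existing microtubules. TPX2 is released from importins by the Ran pathway near chromosomes, activates the kinase Aurora A and promotes microtubule nucleation, while NUSAP1, HMMR and DLGAP5 bind and bundle microtubules near chromosomes or poles. ASPM focuses microtubule ends at the poles, CKAP5 (ch-TOG) adds tubulin to growing ends, TACC3 links neighbouring microtubules together with CKAP5 and clathrin, and SPAG5 (astrin) stabilises attachments to kinetochores. Transcripts of many of these genes are known to rise in G2 and mitosis and to be low in resting cells. In bulk RNA, fewer cells in G2 or mitosis and less transcript per cell cannot be told apart.

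The libraries held between 26499929 and 31431479 counts, and 16749 genes remained after genes with low counts were removed. EIF1 had 34666, 35700 and 34695 counts in NC replicates 1 to 3 and 3377, 3025 and 3078 counts in the siEIF1 replicates. Its log2 fold change was -3.58 (standard error 0.055, edgeR quasi-likelihood test, adjusted p = 1.08e-13). Markers of the retinal pigment epithelium were uneven. KRT18, KRT8, BEST1, OTX2 and MITF had mean FPKM values of 326, 113, 66, 17.8 and 5.84 in the NC group. Overlaps of these marker genes with other genes were not examined, so their values may include reads from other genes. PMEL (0.27), RLBP1 (0.24), LRAT (0.12) and TYRP1 (0.06) were near 0 there, and TYR had a mean of 0.667 counts per library. RPE65 and TTR were not found among the genes with counts. Of 8 of these markers tested, 3 were higher in the siEIF1 group (37.5%, against 10.2% of all tested genes) and 5 did not pass. The 3 were RLBP1 (log2 fold change 1.55), KRT18 (0.25) and KRT8 (0.24). The 5 that did not pass were LRAT (-0.40), BEST1 (-0.32), MITF (-0.04), PMEL (-0.002) and OTX2 (0.10), so the markers did not move in 1 direction. RLBP1 had few counts, 16, 11 and 17 in the NC and 49, 42 and 49 in the siEIF1 libraries. Of 9 markers of endothelium, leukocytes, photoreceptors and glia, only CD68 passed the filter on low counts, with a log2 fold change of 0.03 (adjusted p = 0.94 by edgeR's quasi-likelihood test).

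Promoter sequences from RefSeq (GRCh38.p14) were matched for 9 of the 10 genes, and TPX2 was not matched. Many genes of G2 and mitosis carry the cell cycle genes homology region, a short element with the letters TTTGAA or TTTAAA close to the transcription start, and often CCAAT letters further upstream. The stretches below run from 60 bases before the RefSeq start over the 30 bases from that start onward, on the strand of the gene. They are shown because most of the 9 genes carry these letters close to the start. The RefSeq start can lie inside the gene coordinates given further below. It was chr4:1720631 for TACC3, whose coordinates begin at 1712858, and chr15:41332881 for NUSAP1, whose coordinates begin at 41320794. Other starts of the genes were not searched. Capitals mark TTTGAA or TTTAAA read on either strand, so TTCAAA is TTTGAA on the other strand.
HMMR, chr5:163460572-163460661, plus strand: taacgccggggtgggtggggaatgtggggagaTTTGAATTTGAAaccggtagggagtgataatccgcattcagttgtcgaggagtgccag
CKAP2L, chr2:112764580-112764669, minus strand: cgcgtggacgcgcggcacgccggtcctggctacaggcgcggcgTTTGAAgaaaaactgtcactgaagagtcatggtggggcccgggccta
DLGAP5, chr14:55191556-55191645, minus strand: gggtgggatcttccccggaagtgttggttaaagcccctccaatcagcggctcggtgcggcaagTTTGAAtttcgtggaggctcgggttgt
SPAG5, chr17:28598996-28599085, minus strand: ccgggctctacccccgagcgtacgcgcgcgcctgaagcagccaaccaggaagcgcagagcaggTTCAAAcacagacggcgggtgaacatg
ASPM, chr1:197146640-197146729, minus strand: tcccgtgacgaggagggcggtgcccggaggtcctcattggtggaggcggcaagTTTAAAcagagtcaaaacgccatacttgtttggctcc
NUSAP1, chr15:41332821-41332910, plus strand: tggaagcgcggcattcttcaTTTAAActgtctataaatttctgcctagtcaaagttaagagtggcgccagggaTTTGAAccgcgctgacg
CKAP5, chr11:46846251-46846340, minus strand: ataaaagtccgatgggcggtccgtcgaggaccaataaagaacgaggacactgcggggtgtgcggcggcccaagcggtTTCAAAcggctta
TACC3, chr4:1720571-1720660, plus strand: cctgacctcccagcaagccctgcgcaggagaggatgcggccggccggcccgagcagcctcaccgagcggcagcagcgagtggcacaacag
CKAP2, chr13:52455928-52456017, plus strand: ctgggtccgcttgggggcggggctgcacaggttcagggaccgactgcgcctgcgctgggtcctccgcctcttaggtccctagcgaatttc

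TTTGAA or TTTAAA was present in these 90 bases in 7 of the 9 promoters, against 7.1% of the 35116 promoters of the table and 4.6% of the 16332 promoters of genes tested here. Between 250 bases before and 50 after the start, the same 7 promoters held them, against 24.0% and 17.2%. HMMR held 2 adjoining copies that begin 28 and 22 bases before the start, CKAP2L a copy 17 bases before it, ASPM a copy 7 bases before it, and DLGAP5 and SPAG5 each a copy 3 bases after it. The letters were also present in CKAP5, which did not pass the test below, and absent from the window of TACC3, which did. CCAAT or ATTGG, the same letters on the other strand, was found in 6 of the 9 promoters in that longer window, against 34.6% of all promoters. HMMR held 5 copies and ASPM 4. In the 90 bases shown, 3 of the 9 held these letters, against 11.8% of all promoters. Matches of letters do not show that a factor binds there.

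Of the 10 genes, 9 passed the filter on low counts, and 7 of these fell in the siEIF1 group at an adjusted p under 0.05 (edgeR quasi-likelihood test, p-values adjusted by Benjamini-Hochberg across the 16749 genes). They were HMMR, CKAP2L, DLGAP5, TPX2, SPAG5, ASPM and TACC3, and among all tested genes 10.4% were lower at this limit. With a fold change below 0.5 in addition, 6 of the 9 were called, all of them but TACC3, against 1.31% of all tested genes. CKAP2 and CKAP5 did not pass. The median log2 fold change of the 9 genes was -1.11, against 0.0033 over all tested genes, and the range was from -1.84 for HMMR to -0.11 for CKAP5. In 8 of the 9 the siEIF1 values in CPM (counts divided by the size of the library) were all under the lowest NC value, which held for 18.9% of all tested genes.

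**Figure D1:**
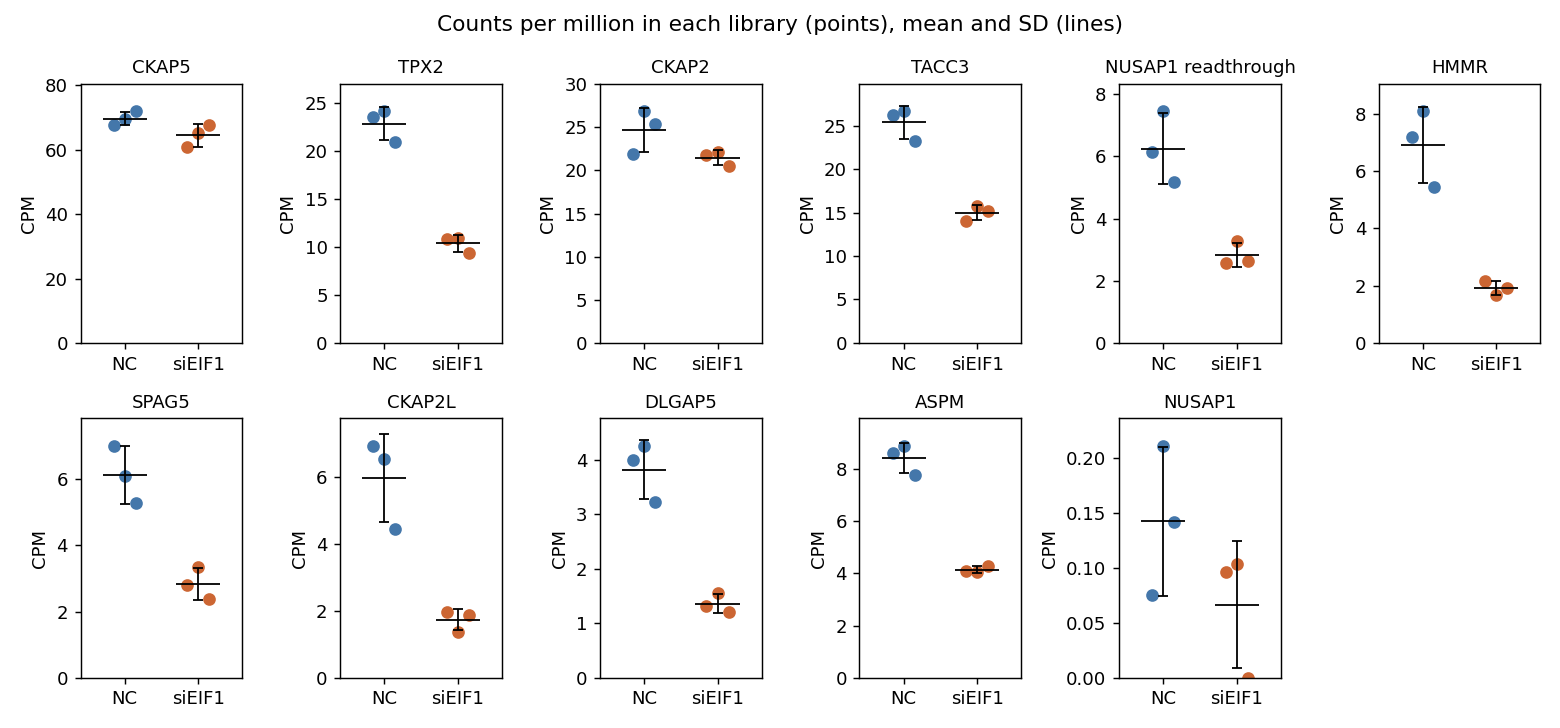
CPM of each of the 10 genes, and of the readthrough gene that overlaps NUSAP1, in the 3 NC and 3 siEIF1 libraries (points), with the mean and SD (lines), each panel on its own axis from 0. The siEIF1 points lie below the NC points in HMMR, CKAP2L, DLGAP5, TPX2, SPAG5, ASPM and TACC3 by a wide gap, while those of CKAP2 overlap and those of CKAP5 nearly touch.

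The largest falls were found for HMMR, CKAP2L and DLGAP5. HMMR (ENSG00000072571.20, chr5:163460203-163491941, plus strand), the hyaluronan-mediated motility receptor that acts at spindle poles, had 7.19, 8.08 and 5.45 CPM in NC replicates 1 to 3 and 2.16, 1.68 and 1.91 CPM in siEIF1 replicates 1 to 3. The highest siEIF1 library was well below the lowest NC library, and the siEIF1 level was 27.9% of NC (log2 fold change -1.84, standard error 0.17, edgeR adjusted p = 9.42e-06). CKAP2L (ENSG00000169607.13, chr2:112736349-112764664, minus strand), a relative of CKAP2 that localises to the spindle, had 6.93, 6.53 and 4.46 CPM in the NC and 1.96, 1.38 and 1.88 CPM in the siEIF1 libraries. NC replicate 3 was lower than the other NC libraries and still more than 2 times above every siEIF1 library, and the log2 fold change was -1.77 (standard error 0.20, edgeR adjusted p = 4.09e-05). DLGAP5 (ENSG00000126787.13, chr14:55148112-55191608, minus strand), also called HURP, stabilises the microtubules that reach kinetochores. It had 3.99, 4.25 and 3.22 CPM in the NC and 1.32, 1.55 and 1.21 CPM in the siEIF1 libraries, so the siEIF1 level was 35.6% of NC (log2 fold change -1.49, standard error 0.19, edgeR adjusted p = 0.000104). The groups did not overlap in any of these 3 genes.

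TPX2, SPAG5 and ASPM fell to a level just under the limit of a fold change of 0.5. TPX2 (ENSG00000088325.16, chr20:31739271-31801805, plus strand), the activator of Aurora A, had 23.6, 24.2 and 21.0 CPM in the NC and 10.8, 11 and 9.38 CPM in the siEIF1 libraries. Its log2 fold change of -1.14 had a standard error of 0.086, which is the smallest among the 6 called genes, and its adjusted p from edgeR was 1.41e-06. SPAG5 (ENSG00000076382.17, chr17:28577565-28599025, minus strand) had 7.0, 6.11 and 5.27 CPM in the NC and 2.80, 3.34 and 2.38 CPM in the siEIF1 libraries (log2 fold change -1.11, standard error 0.16, edgeR adjusted p = 0.00029). ASPM (ENSG00000066279.19, chr1:197084121-197146694, minus strand), a gene mutated in primary microcephaly, had 8.62, 8.89 and 7.78 CPM in the NC and 4.09, 4.06 and 4.29 CPM in the siEIF1 libraries. Its siEIF1 libraries lay close together, and the log2 fold change was -1.02 (standard error 0.11, edgeR adjusted p = 3.03e-05). The 95% confidence intervals of all 3 reached past -1, up to -0.96 for TPX2, -0.77 for SPAG5 and -0.79 for ASPM. SPAG5 came to -0.998 without siEIF1 replicate 3 and ASPM to -0.99 without NC replicate 2, each on the other side of the fold limit, and both kept an adjusted p under 0.05 there.

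TACC3, CKAP2 and CKAP5 changed less. TACC3 (ENSG00000013810.21, chr4:1712858-1745171, plus strand), a substrate of Aurora A, had 26.2, 26.6 and 23.2 CPM in the NC and 14.0, 15.7 and 15.2 CPM in the siEIF1 libraries. Its siEIF1 level was 59.1% of NC (log2 fold change -0.76, standard error 0.077, edgeR adjusted p = 1.78e-05), so it fell without reaching the fold limit. CKAP2 (ENSG00000136108.15, chr13:52455429-52476628, plus strand), a microtubule-stabilising protein, had 21.9, 26.8 and 25.3 CPM in the NC and 21.8, 22.1 and 20.5 CPM in the siEIF1 libraries, and the groups overlapped through NC replicate 1. Its log2 fold change was -0.20 (95% confidence interval -0.37 to -0.03, edgeR adjusted p = 0.0902), and without NC replicate 1 it was -0.28 (adjusted p = 0.0217). CKAP5 (ENSG00000175216.15, chr11:46743048-46846308, minus strand), the microtubule polymerase, had 67.6, 69.6 and 71.9 CPM in the NC and 60.7, 65.1 and 67.5 CPM in the siEIF1 libraries. These ranges almost met, and the log2 fold change of -0.11 had a 95% confidence interval from -0.23 to 0.0041 (edgeR adjusted p = 0.169). The intervals of CKAP2 and CKAP5 both left out a fall of the size seen in TACC3.

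**Figure D2:**
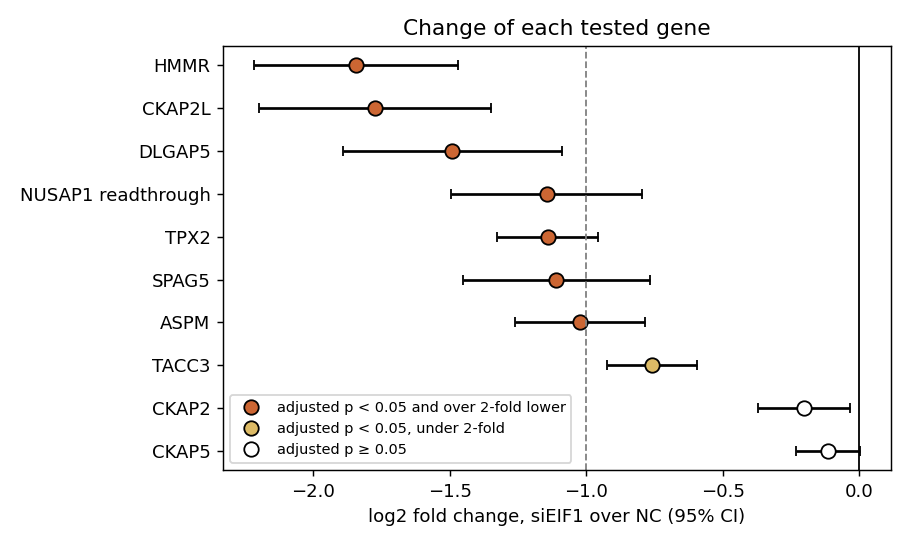
Log2 fold change (siEIF1 over NC) of the 9 tested genes and of the readthrough gene that overlaps NUSAP1, with 95% confidence intervals (bars) and the 2-fold limit (dashed line). HMMR, CKAP2L and DLGAP5 have their whole interval beyond the limit, TACC3 lies between the limit and 0 at -0.76, and CKAP2 and CKAP5 lie at -0.20 and -0.11.

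Levels of different genes were compared in the deposited FPKM, which is scaled by a transcript length that is not given in the sources used here. This length was not that of the canonical transcript. TACC3 (2799 canonical bases) and CKAP2 (3614) had similar NC means of 25.4 and 24.7 CPM, but 2.35 and 4.45 FPKM. The order of the genes below therefore depends on the lengths used and may differ with others. In the NC group the order ran from CKAP5 (6.69 ± 0.268, SD, n = 3) over TPX2 (5.2 ± 0.327), CKAP2 (4.45 ± 0.452), TACC3 (2.35 ± 0.150) and HMMR (1.44 ± 0.264) to SPAG5 (0.963 ± 0.131), CKAP2L (0.897 ± 0.191), DLGAP5 (0.87 ± 0.115), ASPM (0.577 ± 0.032) and NUSAP1. The ranges of SPAG5, CKAP2L and DLGAP5 overlapped, and the other neighbours in the order did not overlap. NUSAP1 stood last with a mean FPKM of 0.033, but 97.8% of its canonical transcript is shared with the readthrough gene described below. That gene had a mean FPKM of 1.48 in the NC group. How reads over the shared bases were counted is not known, so the place of NUSAP1 cannot be told. In the siEIF1 group, CKAP5 (6.11 ± 0.397) was followed by CKAP2 (3.82 ± 0.078), so that TPX2 (2.33 ± 0.154) was now below CKAP2. TACC3 (1.37 ± 0.072) came next, and SPAG5, HMMR, DLGAP5, ASPM and CKAP2L followed with FPKM values from 0.437 to 0.257, and each of these 5 overlapped with its neighbour among them. HMMR, which was above SPAG5 in every NC library, could no longer be separated from it.

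The summed FPKM of the 10 genes was 23.3, 24.5 and 22.6 in the NC and 15.1, 15.3 and 15.5 in the siEIF1 libraries. NUSAP1 added at most 0.05 FPKM to the sum of a library, and its true share cannot be told from these counts. CKAP5 and CKAP2 together made up 44.6%, 46.6% and 51.4% of that sum in the NC and 63.8%, 64.3% and 66.3% in the siEIF1 libraries. The other 8 genes summed to 12.9, 13.1 and 11 FPKM in the NC and to 5.48, 5.48 and 5.21 FPKM in the siEIF1 libraries. The FPKM that remained after EIF1 depletion therefore came mostly from the 2 genes that did not pass the test. These shares also depend on the transcript lengths behind the deposited FPKM.

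**Figure D3:**
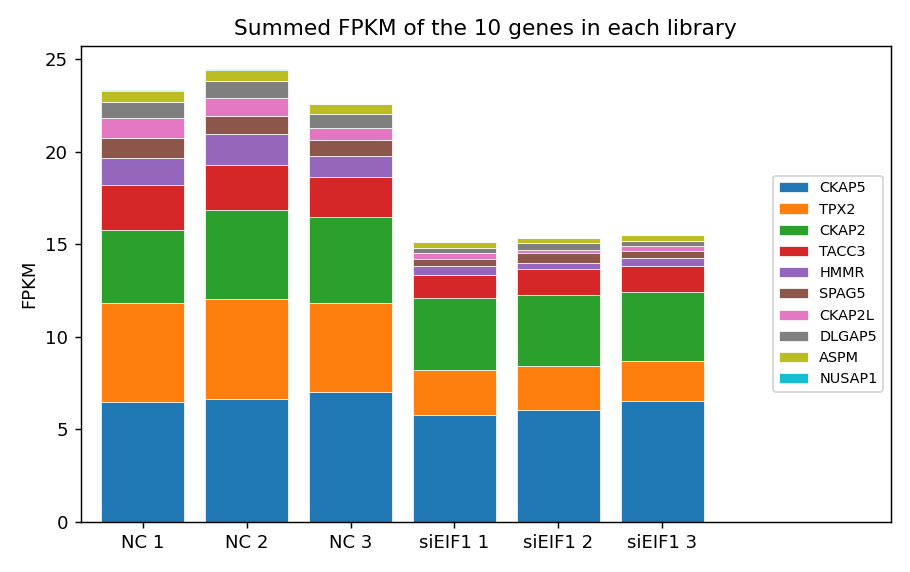
Summed FPKM of the 10 genes in each library, stacked by gene. The blocks of CKAP5 and CKAP2 change little across the 6 libraries, while the blocks above and between them shrink in the 3 siEIF1 libraries, whose sums are between 15.1 and 15.5.

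Genes whose proteins act together or are related were compared by the log2 ratio of their CPM in each library, with 3 ratios tested by a two-sided exact permutation test, in which 3 libraries against 3 allow no p under 0.1. The log2 ratio of TACC3 to CKAP5, partners in one complex, was -1.37, -1.39 and -1.63 in the NC and -2.11, -2.05 and -2.15 in the siEIF1 libraries. It was lower by 0.64 on average without overlap (exact permutation p = 0.1, adjusted p = 0.15). With no p under 0.1 possible, the test cannot decide whether the ratio changed. The ratio also draws on the same counts as the fold changes of TACC3 and CKAP5 given above. The log2 ratio of the related genes CKAP2L to CKAP2 was -1.66, -2.04 and -2.51 in the NC and -3.47, -4.01 and -3.45 in the siEIF1 libraries, a mean difference of -1.58 (exact permutation p = 0.1, adjusted p = 0.15). The log2 ratio of TPX2 to the kinase it activates, AURKA, was 1.38, 1.72 and 1.41 in the NC and 1.15, 1.56 and 1.10 in the siEIF1 libraries. These overlapped, with a mean difference of -0.23 (exact permutation p = 0.3, adjusted p = 0.3).

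NUSAP1 (ENSG00000137804.14, chr15:41320794-41381050, plus strand), which crosslinks spindle microtubules around chromosomes, had only 2, 6 and 4 counts in the NC and 3, 3 and 0 counts in the siEIF1 libraries and was not tested. By the annotation of GENCODE release 44 on GRCh38, 2213 of the 2263 bases of its canonical transcript (97.8%) are also exonic in a readthrough gene on the same strand, ENSG00000285920, which starts within OIP5-AS1 and runs through NUSAP1. The readthrough gene had 163, 212 and 146 counts in the NC and 80, 95 and 79 counts in the siEIF1 libraries. The groups did not overlap, and its log2 fold change was -1.14 (standard error 0.16, edgeR adjusted p = 0.000277), inside the range of the genes that fell. OIP5-AS1, of which the readthrough gene shares an exon, had a log2 fold change of -0.15 (edgeR adjusted p = 0.0882). With the counts of NUSAP1 and the readthrough gene added together, a choice made after the values were seen, the log2 fold change was -1.14 (standard error 0.16, edgeR adjusted p = 0.000288) and 7 of 10 genes were called. How the counting treated reads over bases that the 2 genes share is not given in the sources used here. Whether such reads were given to the readthrough gene or left out was not tested, so its value and the summed value are not a measure of NUSAP1 itself.

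**Figure D4:**
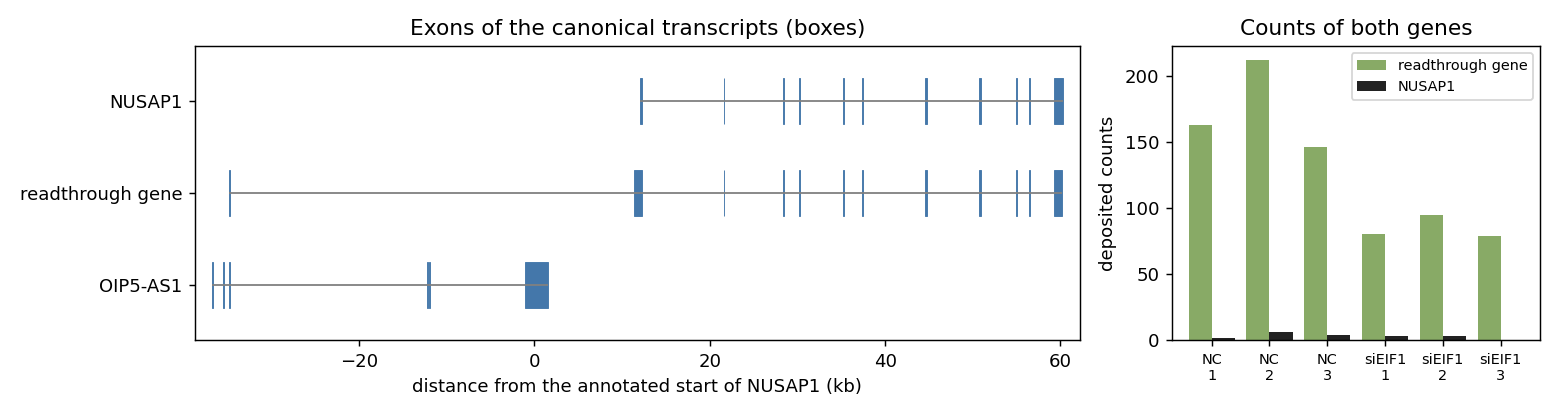
Left, exons of the canonical transcripts (boxes, to scale) of NUSAP1, the readthrough gene and OIP5-AS1 by distance from the annotated start of NUSAP1 in kb. Right, deposited counts in each library, where the readthrough gene has from 79 to 212 counts and NUSAP1 at most 6.

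Overlaps touched 3 other genes to a smaller extent. SPAG5 shared 485 of the 3786 bases of its canonical transcript (12.8%) with a readthrough gene on its strand, ENSG00000258472, which had 76, 79 and 75 counts in the NC and 66, 46 and 59 counts in the siEIF1 libraries. SPAG5 also shared 130 bases with SPAG5-AS1 on the opposite strand, whose log2 fold change was -0.01 (edgeR adjusted p = 0.971). HMMR shared 113 bases with HMMR-AS1, which had at most 2 counts in a library, and CKAP2L shared 200 bases with NT5DC4, which had at most 4. The strand setting of the counting is not given in the sources used here, so reads from the opposite strand may be included.

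The proteins that bind or act with these genes at the spindle were listed as 24 direct partners, all of which were tested. Of these, 11 fell, 2 rose and 11 did not pass an adjusted p of 0.05 (edgeR quasi-likelihood test). The 45.8% lower compares with 10.4% of all tested genes, and the 8.33% higher with 10.2%. The median log2 fold change was -0.16. Past the fold limit were the kinesin KIF15 (-2.0), a partner of TPX2, WDR62 (-1.74) and the kinase CIT (-1.39), which act with ASPM, GTSE1 (-1.57), which binds clathrin at the spindle with TACC3, and FAM83D (-1.07), which works with HMMR. AURKA (-0.90), the kinesin KIF11 (-0.90) and the SPAG5 partner KNSTRN (-0.52) fell by less. The importins that hold TPX2 and NUSAP1 inactive, KPNA2 (-0.59) and KPNB1 (-0.49), also fell, as did TACC1 (-0.21), a relative of TACC3. NUMA1, which gathers microtubule ends at the poles, rose, from an FPKM of 11.3 ± 0.604 with NC to one of 14.6 ± 1.68 with siEIF1 (SD, n = 3, log2 fold change 0.39, edgeR adjusted p = 0.00139). CLTB, a clathrin light chain, rose by 0.17 on the log2 scale. The clathrin chains CLTC (0.08) and CLTA (0.07), RAN (-0.08), RCC1 (-0.10), IPO7 (0.06), TACC2 (0.11), PIK3C2A (-0.07), CDK5RAP2 (-0.14), DYNLL1 (-0.14) and KATNA1 (-0.10) were among those that did not pass.

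Other microtubule genes changed by less, and only the share that fell was above that of all tested genes. Of 66 tested, 14 fell, 6 rose and 46 did not pass (edgeR quasi-likelihood test), which is 21.2% lower and 9.09% higher against 10.4% and 10.2% of all tested genes, and the median log2 fold change was -0.03. Of 20 genes of the gamma-tubulin ring complex, the augmin complex and the pericentriolar material, which nucleate microtubules, 6 fell and 14 did not pass, and those with the smallest p-values were TUBG1 (-0.61), HAUS8 (-0.89) and HAUS6 (-0.55). HAUS8 is the augmin subunit that contacts the microtubule. Of 10 genes of dynein, dynactin and spindle positioning, GPSM2 (-0.73) and DYNC1LI1 (-0.29) fell and DCTN1 (0.27) rose. Of 9 genes that follow growing plus ends, as CKAP5 does, SLAIN2 (0.26) and CLIP2 (0.27) rose and 7 did not pass. Of 20 interphase microtubule-associated proteins, 4 fell and 3 rose, led by EML4 (-0.45), MAP7D3 (0.26) and EML1 (-0.35). Of 7 severing and destabilising proteins, FIGNL1 (-0.55) and STMN1 (-0.31) fell. The log2 fold changes of the 66 genes lay between -0.89 and 0.42.

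**Figure D5:**
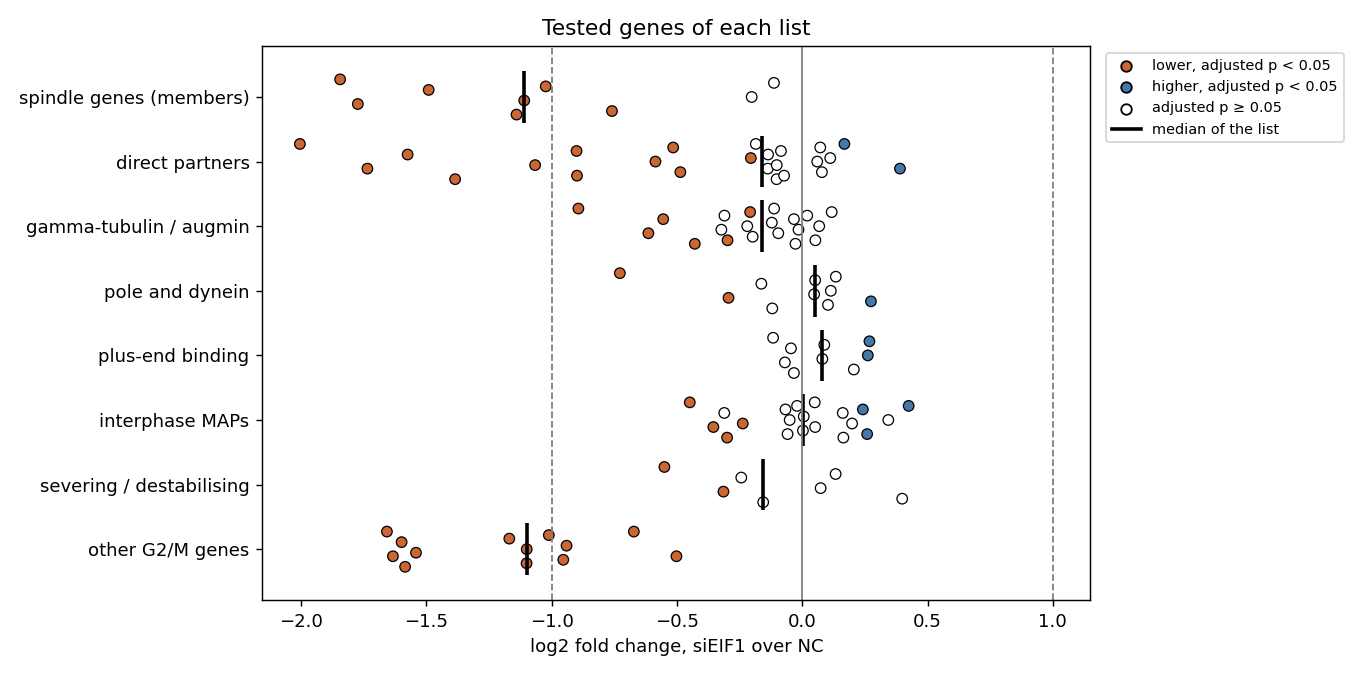
Log2 fold change (siEIF1 over NC) of the tested genes of each list (points, coloured where the adjusted p is under 0.05), with the median of the list (black bar) and the 2-fold limits (dashed lines). The spindle genes and the other G2/M genes have medians of -1.11 and -1.10, while the medians of the other lists lie between -0.16 and 0.08.

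Genes that mark cells in G2 and mitosis moved with these results. Of 13 such genes outside the 10, all 13 fell in the siEIF1 group at an adjusted p under 0.05 (edgeR quasi-likelihood test), against 10.4% of all tested genes. With the fold limit in addition 9 were called, against 1.31% of all tested genes. The median log2 fold change of the 13 was -1.10, with a range from -1.66 to -0.50. CDK1 (-1.66, edgeR adjusted p = 3e-07), TOP2A (-1.54) and UBE2C (-1.58) had the smallest p-values. BUB1 (-1.63), MKI67 (-1.60), CDC20 (-1.17), CENPF (-1.10), PLK1 (-1.10) and CCNB1 (-1.01) were also past the fold limit. The summed CPM of the 13 genes was between 161 and 187 in the NC and between 73.1 and 78.3 in the siEIF1 libraries, without overlap. The part that the share of cells in G2 and mitosis has in the changes of the spindle genes was not tested.

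The libraries of a group also differed from each other in a shared way. NC replicate 3 had the lowest CPM of the 3 NC libraries for all 6 called spindle genes, for 7 of the 9 tested and for 9 of the 13 other G2/M genes, and NC replicate 2 had the highest for 6 of the 9 and for 11 of the 13. CKAP5 ran the other way, with its highest NC level in replicate 3. Without NC replicate 3 the median log2 fold change of the 9 genes was -1.20, and the same 6 genes were called.

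The 5 other genes with a mean of at least 50 counts whose log2 CPM followed the mean pattern of the 9 tested spindle genes most closely over the 6 libraries were CDT1, CEP152, STRADB, DUSP1 and MYO19, with Pearson's r from 0.997 to 0.999. These values are a description over 6 libraries that share the group difference. CDT1, which licenses replication origins, had a log2 fold change of -1.34, and CEP152, which is needed for centriole duplication, of -0.69. STRADB (-0.26), the phosphatase gene DUSP1 (-0.41) and the mitochondrial myosin MYO19 (-0.51) followed the same pattern over the libraries with smaller changes.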

How the data were processed

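RNA-seq was analysed for 3 NC and 3 siEIF1 libraries, grouped by sample title. The authors trimmed reads with FASTX-Toolkit 0.0.13, aligned them to GRCh38 with HISAT2 and deposited raw counts of uniquely mapped reads per gene. The authors also deposited FPKM values, fragments scaled by transcript length and library depth, rounded to 2 decimals. Which transcript lengths were used is not given in the sources used here. The counting program, its strand setting and the annotation are not given in the sources used here, and 99.7% of the gene identifiers were found in GENCODE release 44.

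Counts were filtered with filterByExpr, scaled by TMM and fitted over 16749 genes with edgeR 4.0.16 in R 4.3.3 (quasi-likelihood test, Benjamini-Hochberg adjustment over all tested genes). Calls required an adjusted p under 0.05 together with a fold change outside 0.5 to 2, as in the methods of the study, where DESeq2 was used. Standard errors were derived from the F statistic. CPM values used the TMM library sizes, and log2 CPM a prior count of 1. Libraries held 26499929 to 31431479 counts, so errors are wider for genes with few counts. The intervals are for the log2 difference between the groups. Their width draws on the spread between the 3 libraries per group and on the other genes of the fit. They take in no source of variation beyond these libraries. The fit was tested on simulated data.

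The 10 genes, the lists of direct partners, other microtubule genes, G2/M genes and cell type markers, and the rule for named genes (every direct partner, genes of other lists past both limits or with the 3 smallest p-values, and the 5 genes of most similar pattern) were chosen with earlier results of these data known. Values of a single direct partner are not reported here. The overlapping genes were named after their values were seen. Of the columns of both tables, 0 were unmatched. Alternatives were RLE and upper-quartile normalization, other count filters, DESeq2 1.42.0, limma 3.58.1 on log2(FPKM + 1) and log2(FPKM + 0.1), the replicate number as a block, a test against the fold limit, and leaving out each library.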

Additional observations from a re-analysis of the deposited data

How the results depend on the processing

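The number of spindle genes called lower was 6 and stayed between 5 and 6 with each library left out. It was 1 (HMMR) in a test against the fold limit itself (glmTreat), which called 39 genes lower in all, in place of 219. With limma on log2(FPKM + 1) it was 0, since the pseudocount shrinks differences at an FPKM near 1, and 19 genes were called lower in all. On that scale the median of the 9 genes was -0.50, and the same 7 genes had an adjusted p under 0.05 as with counts. With limma on log2(FPKM + 0.1) 4 spindle genes were called (CKAP2L, DLGAP5, HMMR and TPX2). The number with an adjusted p under 0.05 was 7 to 8 with each library left out, and the added gene without NC replicate 1 was CKAP2. Direct partners that were lower numbered 9 to 12 and other microtubule genes that passed 14 to 19 with each library left out, against 11 and 20. The log2 fold change of EIF1 lay between -3.61 and -3.55 over all alternatives. The other normalizations, filters and DESeq2 gave 6 called genes each. Same-numbered libraries deviated together with correlations of 0.15, 0.091 and 0.12, so the numbers were not taken as pairs, although every library correlated best with its own number. With the replicate number as a block, 6 spindle genes were called and 7 had an adjusted p under 0.05. The direct partners that were lower then numbered 13 and the other microtubule genes that passed 26. At 0 to 6 counts per library, a change of NUSAP1 itself was not detectable with these counts. How they treat reads over the bases shared with the readthrough gene is not known.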
